A study of Saccharomyces cerevisiae with 136 samples.

Results

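10 genes of budding yeast, encoding its peroxiredoxins, thioredoxins and thioredoxin reductases, were followed in single replicatively aging cells. They were chosen by gene identifier as TSA1 (YML028W), TSA2 (YDR453C), AHP1 (YLR109W), DOT5 (YIL010W), PRX1 (YBL064C), TRX1 (YLR043C), TRX2 (YGR209C), TRX3 (YCR083W), TRR1 (YDR353W) and TRR2 (YHR106W), 10 of the 5997 genes of the deposited table. The cells were wild type of the BY4742 background (MATalpha), grown on solid SD agar, dissected by hand when 2, 16 or 36 h old, and sequenced one cell per Smart-seq2 library. Of the 136 cells listed, 125 had values, namely 37 cells in the 2-h, 43 in the 16-h and 45 in the 36-h age group. The study's own list per cell splits the later groups at their mean number of generations into slow- (S) and fast-dividing (F) subgroups, with 17 cells in 16-h/S, 26 in 16-h/F, 18 in 36-h/S and 27 in 36-h/F. No culture is named, so that each age group counts as 1 sample and no test was made between groups. All SDs below are spreads among cells, and all intervals cover counting error only.

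Peroxiredoxins are peroxidases that reduce hydrogen peroxide and organic peroxides with a reactive cysteine at the active site. The oxidized enzyme is returned to its reduced form by thioredoxin, a small dithiol protein, and thioredoxin is in turn reduced by thioredoxin reductase with electrons from NADPH. The mitochondrial enzyme Prx1 can also be reduced with glutathione. In yeast, TSA1 and TSA2 encode the cytosolic peroxiredoxins most closely related to each other, AHP1 encodes a cytosolic enzyme with a preference for alkyl hydroperoxides, DOT5 a nuclear and PRX1 a mitochondrial peroxiredoxin. TRX1 and TRX2 encode the cytosolic and TRX3 the mitochondrial thioredoxin, while TRR1 and TRR2 encode the cytosolic and the mitochondrial reductase. The cytosolic thioredoxins also donate electrons to ribonucleotide reductase, to methionine sulfoxide reductases and to sulfate assimilation.

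The coding sequence around each active site is shown because it is what places the 10 genes in 3 classes. In RefSeq's R64 genome, 5′ to 3′, with the codons of the active-site cysteines in capitals, the sites read as follows.
TSA1: ccattggccttcactttcgtcTGT
TSA2: ccattggctttttcatttgtcTGT
AHP1: ccagctgctttctccccaaccTGT
DOT5: cccagggcaagcacgcctggtTGT
PRX1: ccagcagatttcacccctgtcTGC
TRX1: tggTGCggtccaTGT
TRX2: tggTGTgggccaTGT
TRX3: tggTGTggccccTGT
TRR1: TGTgccgtgTGT
TRR2: TGTgctgtaTGT
Each of the 5 peroxiredoxin genes has 1 such cysteine codon in the run shown, at codon 48 in TSA1 and TSA2, 62 in AHP1, 107 in DOT5 and 91 in PRX1. Each thioredoxin run spans codons 29 to 33 in TRX1, 30 to 34 in TRX2 and 54 to 58 in TRX3, with a pair of cysteine codons, and the reductases have their pair at codons 142 and 145 in TRR1 and 165 and 168 in TRR2. The nearest relatives are TSA1 and TSA2, with 464 of 591 aligned coding bases the same (78.5%) and 85.7% of the residues they encode. TRR1 and TRR2 shared 75.8% of bases and 85.6% of residues, and TRX1 and TRX2 shared 73.7% and 78.6%. Every stretch of 50 bases in each of the 10 coding sequences occurs once in the genome, none of the genes has an intron in its coding sequence, and none overlaps another annotated gene.

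TRX2, TRR1, TSA2, AHP1 and PRX1 are described most closely below, so the DNA 400 to 101 bases before their start codons is given here from R64, 5′ to 3′ on the strand of the gene. Capitals mark matches on either strand to the Yap1 element TTACTAA, to its second form TGACTAA, and to the stress response element AGGGG of Msn2 and Msn4. The letters of the 3 motifs did not overlap in these windows.
TRX2 (chrVII:913328-913627, minus strand): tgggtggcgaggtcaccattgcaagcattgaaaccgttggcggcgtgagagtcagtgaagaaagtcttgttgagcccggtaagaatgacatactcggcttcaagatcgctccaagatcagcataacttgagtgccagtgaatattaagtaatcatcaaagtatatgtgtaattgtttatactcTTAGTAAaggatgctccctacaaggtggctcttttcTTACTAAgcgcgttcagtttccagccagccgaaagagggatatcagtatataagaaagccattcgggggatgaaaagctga
TRR1 (chrIV:1182899-1183198, plus strand): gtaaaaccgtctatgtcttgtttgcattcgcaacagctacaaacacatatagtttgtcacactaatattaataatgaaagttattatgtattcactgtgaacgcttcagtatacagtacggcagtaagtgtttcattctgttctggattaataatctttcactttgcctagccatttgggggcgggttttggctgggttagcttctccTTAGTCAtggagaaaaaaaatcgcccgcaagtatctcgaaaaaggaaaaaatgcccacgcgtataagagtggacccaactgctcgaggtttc
TSA2 (chrIV:1365763-1366062, minus strand): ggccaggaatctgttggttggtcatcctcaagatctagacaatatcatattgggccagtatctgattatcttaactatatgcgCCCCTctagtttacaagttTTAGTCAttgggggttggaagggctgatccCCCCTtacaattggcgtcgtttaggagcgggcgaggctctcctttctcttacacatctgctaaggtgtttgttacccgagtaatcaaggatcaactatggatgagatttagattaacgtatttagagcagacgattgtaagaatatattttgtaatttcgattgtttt
AHP1 (chrXII:368381-368680, plus strand): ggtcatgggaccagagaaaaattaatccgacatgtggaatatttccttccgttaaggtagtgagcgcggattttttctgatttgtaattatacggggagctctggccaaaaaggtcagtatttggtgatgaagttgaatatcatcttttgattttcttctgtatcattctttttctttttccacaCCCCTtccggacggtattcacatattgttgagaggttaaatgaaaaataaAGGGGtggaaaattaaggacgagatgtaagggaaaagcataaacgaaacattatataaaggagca
PRX1 (chrII:101257-101556, minus strand): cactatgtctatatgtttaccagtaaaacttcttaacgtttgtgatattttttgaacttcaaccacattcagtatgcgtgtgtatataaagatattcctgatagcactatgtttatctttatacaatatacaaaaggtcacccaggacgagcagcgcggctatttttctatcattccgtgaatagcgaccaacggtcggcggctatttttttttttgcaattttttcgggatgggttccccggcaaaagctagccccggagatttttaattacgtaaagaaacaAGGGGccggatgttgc
TRX2 held 2 Yap1 elements, whose first bases lie 217 and 181 bases before the start codon, and no other member held TTACTAA. Among 6001 windows of the same length, 6.82% held this element and 0.35% held it at least 2 times, and 125 bases of the TRX2 window lie in its neighbour YGR210C. TSA2 held 1 second form and 2 stress response elements, and TRR1 held 1 second form. The second form is found in 3.70% of all windows. AHP1 held 2, PRX1 1 and TRR2 1 stress response element, an element found in 23.5% of all windows and at least 2 times in 4.12%. In all, 3 of the 10 members held either Yap1 form, against 10.2% of all windows, and 4 held the stress response element. No match was found in the windows of TSA1, DOT5, TRX1 and TRX3. A match is a run of letters and was not tested for binding.

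The libraries held 40883 to 833501 reads on genes, with medians of 270573, 262919 and 252159 at 2, 16 and 36 h, and 62.9% of all values were 0. Absence of reads is therefore read as no detection at that depth. The S cells were shallower, with a median of 186022 reads and 1830 genes in 36-h/S against 325464 reads and 2486 genes in 36-h/F, and of 199571 reads in 16-h/S against 277170 in 16-h/F. Sample titles name BY4741 (MATa), while the strain and source labels name BY4742. At least 1 of the 3 MATalpha genes tried (MF(ALPHA)1, MF(ALPHA)2, STE3) had reads in 30 of 37, 35 of 43 and 25 of 45 cells at 2, 16 and 36 h, while LYS2, deleted in BY4742, had reads in 3, 2 and 0 cells. The other strain marker of the list, for BY4741, was not analysed here, so that the strain was read from 1 of 2 markers. Of the 5 MATa genes listed, 3 were analysed here (STE2, STE6, BAR1), and any of these had reads in 8, 9 and 12 cells. Reads of STE2 were found in 1, 0 and 0 cells. The 8 genes of daughter cells and cell separation (DSE1, DSE2, DSE4, CTS1, SCW11, EGT2, ASH1, AMN1) moved with age, with reads of any of them in 17 of 37, 35 of 43 and 35 of 45 cells and a median summed log2 level of 0, 6.83 and 5.24. Their summed level reached 14.9, 56.5 and 80.3 in single cells, and SCW11 had no reads at 2 h. A pair of 36-h/S libraries stands apart. The 36-h cell 14 (71740 reads, 1146 genes) had no reads of TSA1, TRX1, TRX2 or TRR1, and the 36-h cell 22 (89603 reads, 1341 genes) had none of TSA1, TRX1 or TRR1. AHP1 had reads in every cell. Results that rest on these cells are given with and without them.

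Of the 10 genes, 7 were higher in 36-h than in 2-h cells by at least 1 in mean log2 normalized count, the size taken throughout as a difference, and none was lower by that much. The normalized count is the read number of a gene divided by the size factor of the cell, and the log2 is taken after adding 1. The 7 genes were PRX1, TSA2, TRX2, TRR1, TRR2, DOT5 and TRX3. Over the 4398 genes found in 20% or more of all cells, which include all 10 members, 23.1% were higher and 13.3% lower by this size. The median difference was 1.57 over the members, against 0.28 over these genes. AHP1 (0.90), TRX1 (0.57) and TSA1 (-0.28) did not reach the size. With a pseudocount of 10 in place of 1, 4 members were higher (PRX1, TRX2, TSA2 and TRR1), and TRR2 (0.86), DOT5 (0.77) and TRX3 (0.58) did not reach the size. Without the 36-h cells 14 and 22 the same count of 7 was reached, with a median of 1.63, and TSA1 then stood at 0.11. Only 10 of the 36-h and 20 of the 2-h cells had no reads of the daughter genes, and between these 5 members were higher by at least 1, PRX1 by 3.28, TSA2 by 3.45, DOT5 by 2.27, TRR1 by 1.85 and TRX1 by 1.38. TRX2 (0.88), TRX3 (0.76) and TRR2 (0.70) did not reach the size between these cells.

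**Figure D1:**
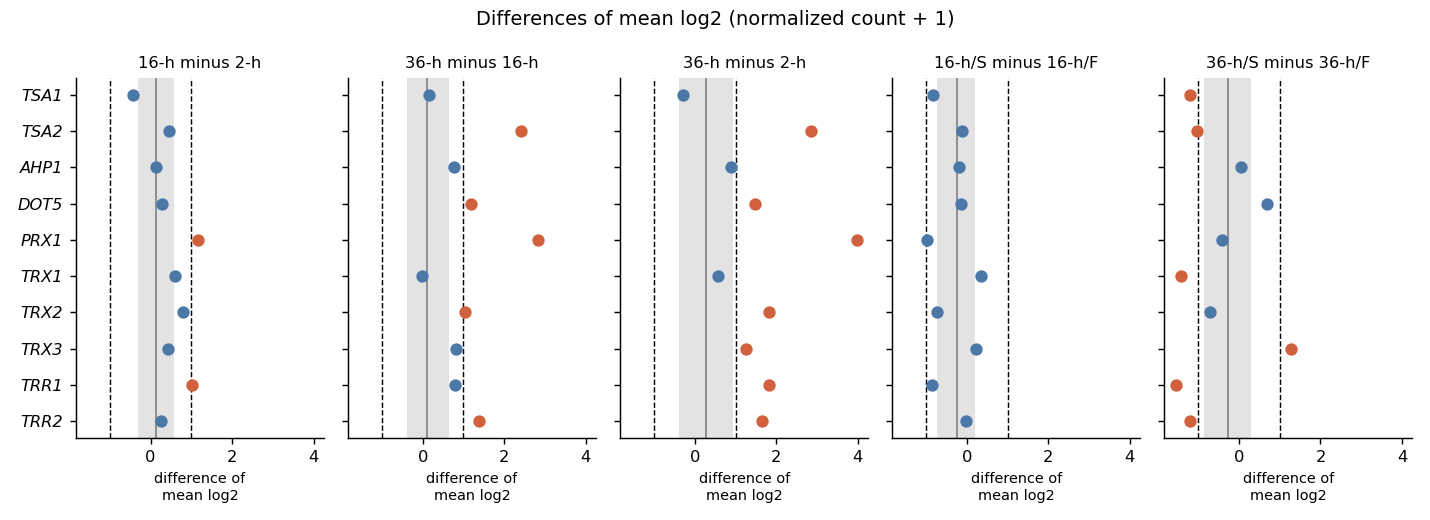
Difference of mean log2 (normalized count + 1) of each member (rows) in 5 comparisons (panels), with orange points for differences of at least 1 in size, dashed lines at 1 and -1, and the median and the middle 50% of 4398 genes as a grey line and band. PRX1 (3.98) and TSA2 (2.85) lie farthest right between 36-h and 2-h cells, and TRR1 (-1.56) farthest left between 36-h/S and 36-h/F cells.

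Among the peroxiredoxin genes, AHP1 was the most highly expressed member at every age. Per kb of coding length its mean normalized count ranked 7, 7 and 4 of 5693 genes at 2, 16 and 36 h. AHP1 lies on chromosome XII at 368781 to 369311 (plus strand). Its log2 normalized count ran from 9.41 over a median of 10.45 to 11.31 at 2 h, from 9.09 over 10.54 to 11.37 at 16 h, and from 9.44 over 11.27 to 12.64 at 36 h. These ranges overlap, but the median of the 36-h cells was close to the highest 2-h cell. The mean was 11.28 ± 0.65 (SD among 45 cells) at 36 h, against 10.38 ± 0.45 (SD among 37 cells) at 2 h, and a 36-h cell drawn at random lay above a 2-h cell with a probability of 0.89. The mean normalized count was 2731 at 36 h, against 1391 at 2 h, or 1.96-fold. When every cell was scaled to the same sum of reads, the log2 difference of AHP1 was 0.51.

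TSA1, a cytosolic peroxiredoxin gene (chromosome XIII, 220138 to 220728, plus strand), had nearly the same median at every age. Its median log2 normalized count was 8.75, 8.78 and 8.75 at 2, 16 and 36 h. All 37 cells at 2 h lay between 7.13 and 10.50, while the later groups also held cells without reads, 1 of 43 at 16 h and the 2 cells named above at 36 h. The SD among cells was accordingly 2.16 at 36 h, against 0.81 at 2 h. The sign of the difference between 36-h and 2-h cells depended on the setting, from -0.65 with every cell scaled to the same sum to 0.23 as the log2 ratio of mean normalized counts.

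Its paralog TSA2 (chromosome IV, 1365072 to 1365662, minus strand), which is known as a low-level gene induced by stress, was found in 10 of 37 cells at 2 h (27%, exact Clopper-Pearson 95% interval 13.8 to 44.1%), 17 of 43 at 16 h (39.5%, 25 to 55.6%) and 28 of 45 at 36 h (62.2%, 46.5 to 76.2%). With every cell thinned to 40000 reads, it was found in 8, 12 and 27 cells. The median log2 normalized count was 0 at 2 and 16 h and 3.62 at 36 h, and the highest cell stood at 6.59, 6.36 and 9.28. TSA2 averaged 82.6 normalized counts at 36 h, against 6.04 at 2 h, or 13.7-fold, and its mean log2 level was 3.78 ± 3.37 at 36 h, against 0.93 ± 1.80 at 2 h. The 36-h cells were thus split between 17 without reads and a range that reached above every younger cell. Of the summed normalized counts per kb of TSA1 and TSA2 together, TSA2 made up 1.18%, 1.42% and 12.2% at 2, 16 and 36 h. TSA2 exceeded TSA1 in 4 of 45 cells at 36 h, all of them 36-h/S cells and 2 of them the cells 14 and 22, and in 1 of 43 at 16 h.

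PRX1, the mitochondrial peroxiredoxin gene (chromosome II, 100371 to 101156, minus strand), showed the widest difference of the 10 in mean log2 level between 36-h and 2-h cells. As a log2 ratio of mean normalized counts TSA2 was wider (3.77, against 3.06 for PRX1), as it was between cells without reads of the daughter genes. PRX1 was detected in 16 of 37 cells at 2 h (43.2%, 27.1 to 60.5%), 29 of 43 at 16 h (67.4%, 51.5 to 80.9%) and 42 of 45 at 36 h (93.3%, 81.7 to 98.6%), and in 13, 24 and 41 cells after thinning. Its log2 normalized count had a median of 0, 3.30 and 6.49 and a highest cell of 7.79, 7.44 and 9.34 at 2, 16 and 36 h. The mean was 5.94 ± 2.60 at 36 h, against 1.96 ± 2.61 at 2 h, a difference larger than either spread among cells, and a 36-h cell lay above a 2-h cell with a probability of 0.85. In mean normalized counts this was 157 at 36 h, against 18.9 at 2 h (8.33-fold). The difference of 3.98 lay above those of 98.7% of the 4398 genes.

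DOT5, the nuclear peroxiredoxin gene (chromosome IX, 334882 to 335529, plus strand), was found in 12 of 37, 22 of 43 and 24 of 45 cells at 2, 16 and 36 h. After thinning these were 9, 16 and 22 cells. Its median log2 level was 0, 0.63 and 2.66, and its mean was 2.92 ± 3.08 at 36 h, against 1.44 ± 2.40 at 2 h. The share of cells with reads was close between 36 h (53.3%) and 16 h (51.2%), while the mean normalized count was 43.4 at 36 h, against 11.6 at 16 h.

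**Figure D2:**
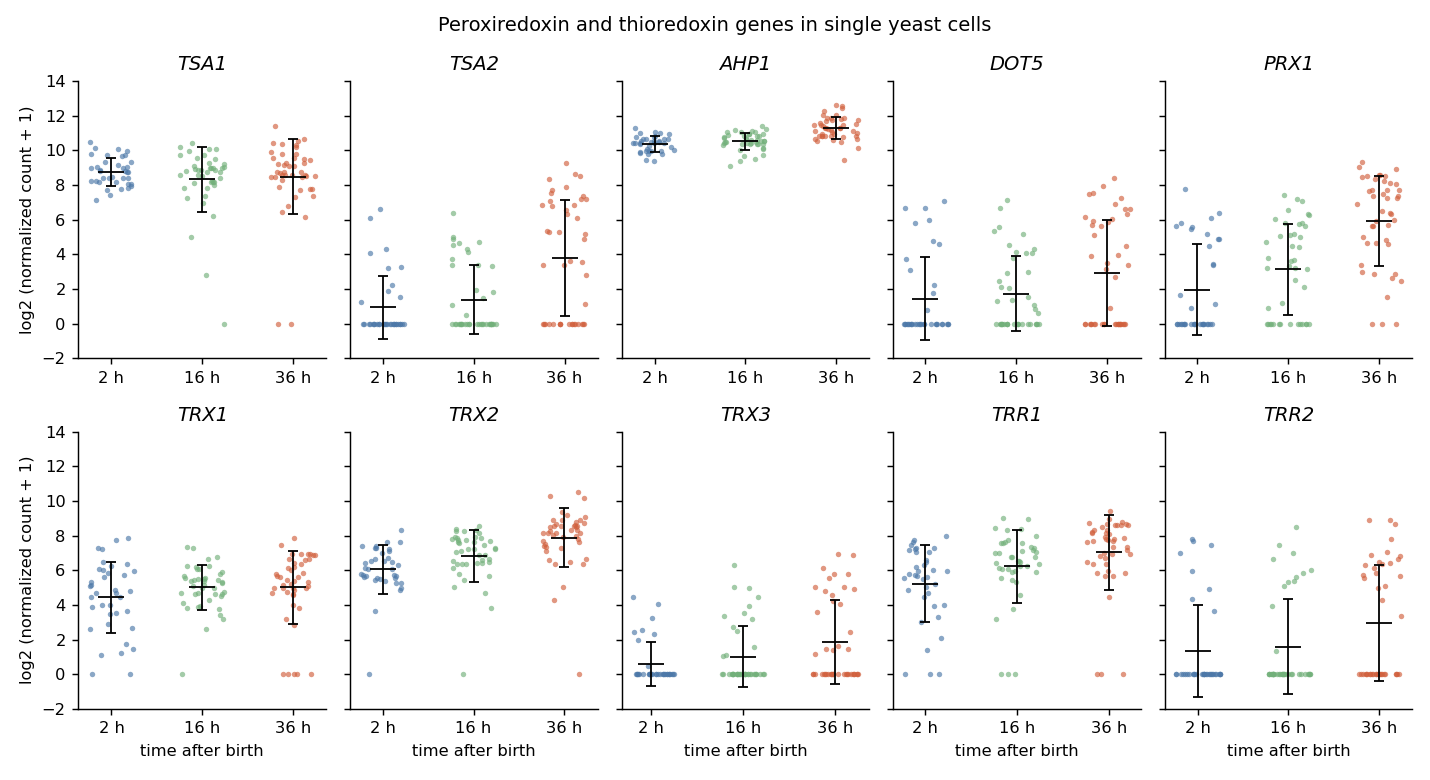
Log2 (normalized count + 1) of the 10 members in every cell at 2 h (n = 37 cells), 16 h (n = 43) and 36 h (n = 45), with 1 point per cell and the mean ± SD among cells as a black bar. AHP1 has reads in every cell, the cells with reads of PRX1 go through 16, 29 and 42, and the middle of TSA1 stays near 8.75.

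Of the 2 cytosolic thioredoxin genes, TRX2 was higher by at least 1 in 36-h cells and TRX1 was not, although between the cells without reads of the daughter genes TRX1 passed the size (1.38) and TRX2 did not (0.88). TRX2 (chromosome VII, 912913 to 913227, minus strand) had reads in all but 1 cell of each age group. Its log2 normalized count had medians of 6.09, 7.20 and 8.17 and highest cells of 8.30, 8.55 and 10.52 at 2, 16 and 36 h. The mean was 7.87 ± 1.70 at 36 h, against 6.04 ± 1.40 at 2 h, and the mean normalized count was 348 at 36 h, against 88.2 at 2 h (3.95-fold). Per kb its rank went through 149, 60 and 27 of 5693 genes over the 3 ages. A 36-h cell lay above a 2-h cell with a probability of 0.87, close to the 0.89 of AHP1.

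TRX1 (chromosome XII, 231702 to 232013, minus strand) had medians of 4.71, 5.28 and 5.37 at 2, 16 and 36 h, with highest cells of 7.87, 7.35 and 7.88. It had no reads in 2 of 37, 1 of 43 and 5 of 45 cells. The mean normalized count was 57.1 at 36 h, against 45.6 at 2 h, and the probability that a 36-h cell lay above a 2-h cell was 0.61. The groups overlapped over nearly their whole range.

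The balance of this cytosolic pair was therefore unlike between the ages. TRX2 made up 65.7%, 77.9% and 85.8% of the summed normalized counts per kb of the pair at 2, 16 and 36 h, and the median share over cells was 74.6%, 79.3% and 90.1%. It was the larger of the pair in 27 of 37, 39 of 43 and 39 of 44 cells with reads of either. Leaving out the cell highest in the pair gave 67.9%, 78.3% and 85.2%. The cells without reads of the daughter genes (20, 8 and 10 cells) gave 68.0%, 78.3% and 85.9%. These last shares are of summed reads per kb, in which deeper cells weigh more, and not of normalized counts. In mean log2, TRX1 differed more than TRX2 between these 36-h and 2-h cells, as given above.

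**Figure D3:**
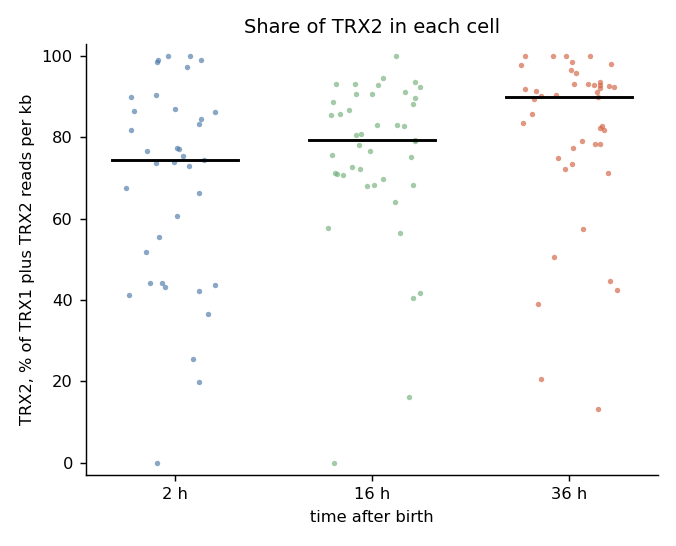
Share of TRX2 in the reads per kb of TRX1 plus TRX2 in each cell at 2, 16 and 36 h, with 1 point per cell and the median as a black line. The medians are 74.6%, 79.3% and 90.1%, and single cells reach from 0 to 100% at 2 and 16 h.

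TRX3, the mitochondrial thioredoxin gene (chromosome III, 259578 to 259961, plus strand), was, with TRR2, the least detected member, with reads in 8 of 37 cells at 2 h (21.6%, 9.83 to 38.2%), 13 of 43 at 16 h (30.2%, 17.2 to 46.1%) and 20 of 45 at 36 h (44.4%, 29.6 to 60.0%). Its median was 0 in all age groups. The highest cell stood at 4.46, 6.28 and 6.94. The mean log2 level was 1.84 ± 2.43 at 36 h, against 0.58 ± 1.25 at 2 h, and rested on 427 reads at 36 h, against 82 at 2 h.

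Both reductase genes were higher in 36-h cells. TRR1 (chromosome IV, 1183299 to 1184258, plus strand), encoding the cytosolic enzyme, had medians of 5.74, 6.54 and 7.69 and highest cells of 7.99, 9.02 and 9.40 at 2, 16 and 36 h, and lacked reads in 3 cells of each group. Its mean was 7.03 ± 2.18 at 36 h, against 5.22 ± 2.21 at 2 h, and 220 normalized counts, against 73.4 at 2 h (2.99-fold). Without the 36-h cells 14 and 22 the log2 difference was 2.14 in place of 1.81. TRR2 (chromosome VIII, 325598 to 326626, plus strand), for the mitochondrial enzyme, had reads in 8 of 37, 12 of 43 and 21 of 45 cells, with medians of 0 in all 3 groups and highest cells of 7.80, 8.49 and 8.92. Its mean was 2.97 ± 3.36 at 36 h, against 1.32 ± 2.65 at 2 h. The share of TRR2 in the summed normalized counts per kb of the pair was 22.6%, 14.8% and 20.6% at 2, 16 and 36 h, so that this pair showed no one-way course like that of TRX2.

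At 16 h the differences from 2-h cells were smaller. The members higher by at least 1 were 2, PRX1 by 1.16 and TRR1 by 1.01, and none was lower, where 10.9% of the 4398 genes were higher and 5.89% lower. TRX2 stood at 0.80 and TSA1 at -0.44, and the median over the members was 0.44, against 0.13 over all genes. In the 8 cells at 16 h and 20 at 2 h without reads of the daughter genes, no member was higher by at least 1, with TRR1 at 0.78 and PRX1 at 0.40, and TSA1 was lower by that size at -1.23. The 16-h comparison and the 36-h comparison share the 2-h cells. Between 36-h and 16-h cells, 5 members were higher, PRX1 by 2.82, TSA2 by 2.40, TRR2 by 1.39, DOT5 by 1.20 and TRX2 by 1.03, beside 13.9% of all genes higher and 8.66% lower. Without the 36-h cells 14 and 22, TRR1 reached the size as well (1.13). With every cell scaled to the same sum, 3 members (PRX1, TSA2 and TRR2) were higher, and the split over all genes turned to 9.75% higher and 13.5% lower.

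The number of members with reads in a cell averaged 6.30 ± 1.24 at 2 h, 7.02 ± 1.41 at 16 h and 7.76 ± 1.33 at 36 h (SD among cells), and 5.84, 6.49 and 7.60 with every cell thinned to 40000 reads. All 10 were found together in 0, 2 and 2 cells. The 36-h cell 14 held the fewest, with reads of 2 members, AHP1 and TSA2.

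Between slow- and fast-dividing cells of the same age, 7 of the 10 members lay lower in S at 36 h and 8 at 16 h. Of the 4398 genes, between 61.4% and 64.8% lay lower in S at 36 h and 65.6% at 16 h. At 36 h, 5 members were lower by at least 1 in 36-h/S cells, set against 36-h/F cells, TRR1 (-1.56), TRX1 (-1.42), TSA1 (-1.20), TRR2 (-1.19) and TSA2 (-1.03), and TRX3 was higher (1.29). Over the 4398 genes 20.1% were lower and 7.3% higher, and the median difference of all genes was itself -0.27, beside -0.87 over the members. With a pseudocount of 10 no member was lower by at least 1, and TRR1 stood at -0.99. As a log2 ratio of mean normalized counts none was either, and the lowest was TRR1 at -0.61. The S cells were also shallower, as given above, and the part of depth in these differences was not tested beyond the settings that follow. Without the 36-h cells 14 and 22, which are both 36-h/S cells, TSA1 stood at -0.23, TRX1 at -0.90 and TRR1 at -0.79. Then 2 members were lower by at least 1, TSA2 (-1.37) and TRR2 (-1.32), and 2 were higher, TRX3 (1.18) and DOT5 (1.09). Among cells with at least 100000 reads, 13 in 36-h/S and 24 in 36-h/F, only TRR2 was lower (-1.28), TRX3 was higher (1.06), and the median over the members was 0.15.

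In single cells, the subgroups overlapped for every member. TSA1 had a median of 8.72 among 36-h/S cells, against 8.75 among 36-h/F cells, with a range from 0 to 10.55 in 36-h/S and from 6.46 to 11.39 in 36-h/F. TRR1 had a median of 7.17 in 36-h/S, against 7.88 in 36-h/F, and was without reads in 3 of 18 cells in 36-h/S and in 0 of 27 in 36-h/F, for which the limit of 3 cells in 27 allows up to 11.1% (counting error only). TRX1 had a median of 4.97 in 36-h/S, against 5.65 in 36-h/F, with 4 of 18 cells without reads in 36-h/S and 1 of 27 in 36-h/F. The 36-h/S cells without TRR1 reads were the 36-h cells 14, 19 and 22, and those without TRX1 reads were 13, 14, 22 and 32. A 36-h/S cell lay above a 36-h/F cell with a probability of 0.34 for both TRR1 and TRX1. PRX1 had the higher median in 36-h/S, 7.45 against 5.98 in 36-h/F, while its mean was 5.69 ± 3.13 in 36-h/S and 6.11 ± 2.22 in 36-h/F. The 36-h/S cells without PRX1 reads were cells 14 and 22, and without them its mean in 36-h/S was above that in 36-h/F. AHP1 averaged 11.30 ± 0.67 in 36-h/S and 11.26 ± 0.64 in 36-h/F. TRX3 was found in 8 of 18 cells in 36-h/S and 12 of 27 in 36-h/F (44.4% each), and after thinning to 40000 reads in 8 and 9 cells (44.4% in 36-h/S and 33.3% in 36-h/F), while it averaged 29.1 normalized counts in 36-h/S, against 5.15 in 36-h/F.

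**Figure D4:**
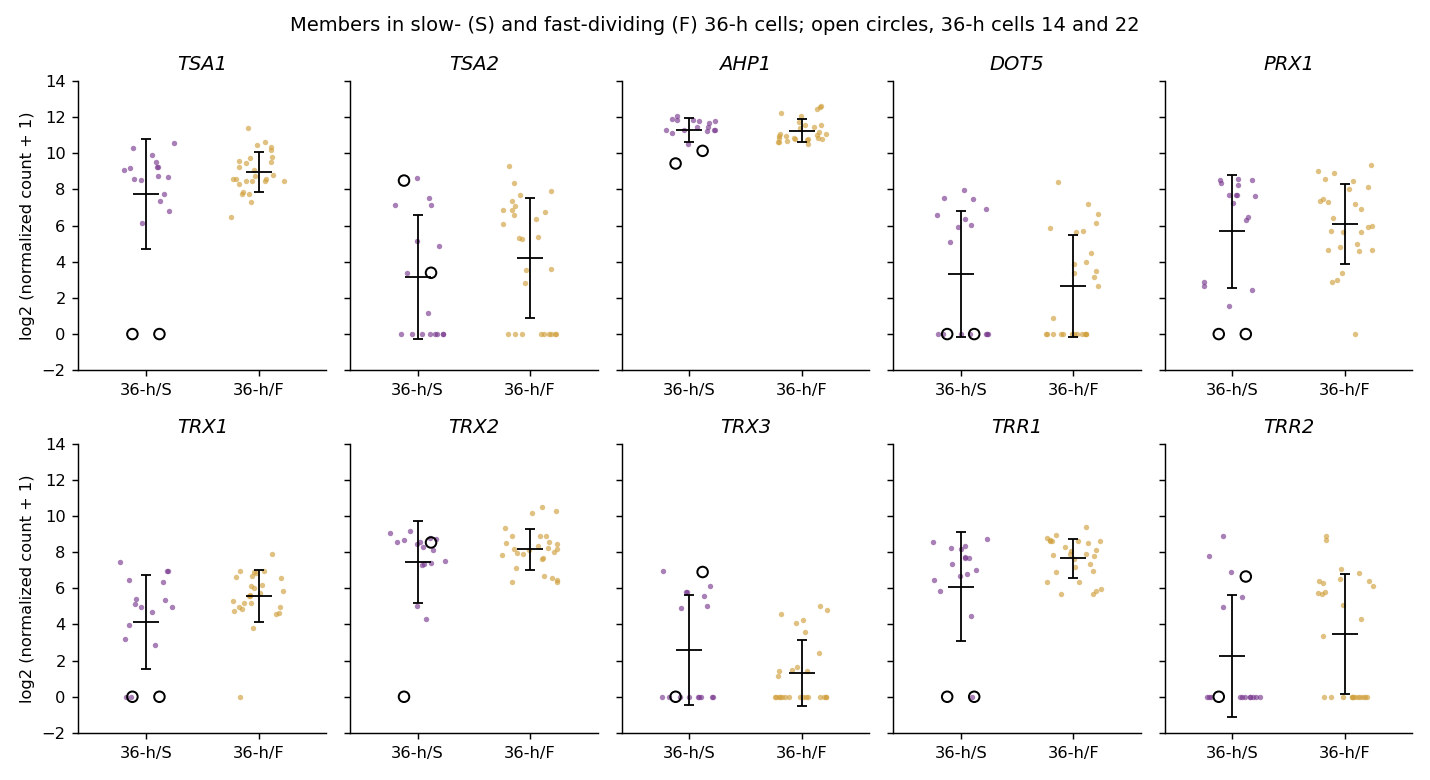
Log2 (normalized count + 1) of the 10 members in 36-h/S (n = 18 cells) and 36-h/F cells (n = 27), with 1 point per cell, the mean ± SD among cells as a black bar, and the 36-h cells 14 and 22 as open circles. These 2 cells are the only ones at 36 h without reads of TSA1, and AHP1 has reads in every cell of both subgroups.

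At 16 h no member differed by at least 1 between S and F, where 14.6% of all genes were lower and 4.46% higher in 16-h/S. Of the 10, 8 lay below 0, as did 65.6% of the 4398 genes, with a median of -0.18 over the members and -0.25 over all genes. The widest were PRX1 (-0.99), with 10 of 17 cells with reads in 16-h/S against 19 of 26 in 16-h/F, TRR1 (-0.87), TSA1 (-0.84) and TRX2 (-0.74). The 16-h/S cell 13 had no reads of TSA1 or TRR1, cell 42 had none of TRX2 or TRR1, and the 16-h/F cell 3 had none of TRR1. Medians in 16-h/S and 16-h/F were 8.42 and 8.82 for TSA1, 6.64 and 7.21 for TRX2, and 6.47 and 6.87 for TRR1. How far these differences of means rest on such cells was not tested. TRX2 averaged 6.39 ± 2.09 in 16-h/S and 7.14 ± 0.86 in 16-h/F, and its share of the cytosolic pair was 72.2% in 16-h/S, against 81.5% in 16-h/F. In a setting with every cell thinned to 40000 reads, PRX1 (-1.30), TSA1 (-1.20) and TRR1 (-1.12) passed the size. The thinned reads were scaled up to the median sum of 263709 reads, in place of the size factors. This setting is therefore not a change of depth alone.

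Across the 45 cells at 36 h, the levels of several members went together. Each cell is a library of its own, and the points share the normalization and differ in depth, so the correlations are given as a description. AHP1 and PRX1 had a Pearson correlation of 0.64 and a Spearman correlation of 0.69, and 0.52 and 0.64 over the 43 cells without cells 14 and 22. AHP1 and TRX2 were at 0.61 and 0.44, or 0.52 and 0.43 without these cells, and TSA1 and AHP1 at 0.64 and 0.50, or 0.48 and 0.42. Other pairs rested on the 2 cells. TSA1 and TRR1 had a Pearson correlation of 0.66 over all cells and 0.16 without the 2 cells, and TSA1 and TRX1 had 0.42 and then -0.07.

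**Figure D5:**
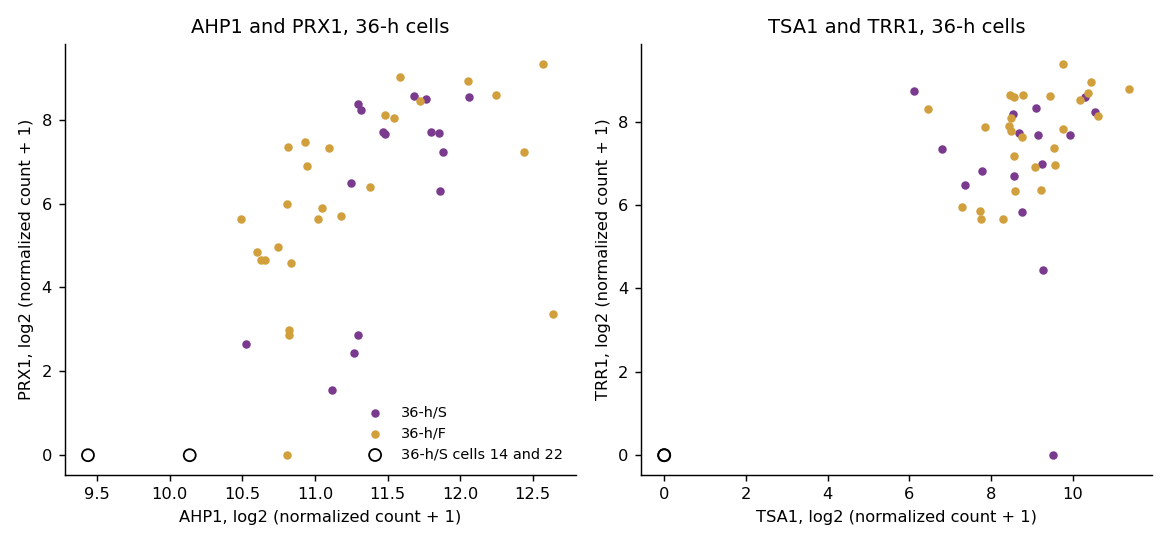
Log2 (normalized count + 1) of PRX1 against AHP1 (left) and of TRR1 against TSA1 (right) in the 45 cells at 36 h, with 1 point per cell, 36-h/S in purple and 36-h/F in yellow, and the 36-h/S cells 14 and 22 as open circles. The left Pearson correlation is 0.64, or 0.52 without the open circles, and the right is 0.66, or 0.16.

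The genes most like each member over the same 45 cells were taken as those with the 2 highest Pearson correlations among the 1577 genes found in 50% or more of the 36-h cells. For AHP1 they were PIL1 (YGR086C, a core component of eisosomes at the plasma membrane) at 0.67, with 0.52 over 43 cells, and TSA1 at 0.64, with 0.48. For PRX1 they were AHP1 at 0.64, with 0.52 over 43 cells, and RIM1 (YCR028C-A, a mitochondrial single-stranded DNA-binding protein) at 0.61, with 0.59 over 43 cells. For TRX2 they were the glycolytic genes PGI1 (YBR196C) at 0.71 and TDH3 (YGR192C) at 0.66, with 0.59 and 0.54 over 43 cells. For TSA1 they were BMH1 (YER177W, a 14-3-3 protein) at 0.73 and YCR013C at 0.72, with 0.50 and 0.53 over 43 cells. YCR013C was not found in RefSeq's R64 annotation, so its overlap with other genes was not checked. Whether its reads come from an overlapping gene was not tested. For TRX1 they were PST2 (YDR032C) at 0.64 and ACT1 (YFL039C, actin) at 0.63, whose Spearman correlations were 0.28 and 0.19. Over 43 cells the Pearson correlations were 0.65 and 0.49 and the Spearman correlations 0.18 and 0.07. For TRR1 they were TDH2 (YJR009C) at 0.77, with a Spearman correlation of 0.28, and TSA1 at 0.66, with 0.56 and 0.16 over 43 cells. TDH2 and TDH3 encode near-identical glyceraldehyde-3-phosphate dehydrogenases, so that the division of reads between them is uncertain.

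Other genes that work with the thioredoxin system were read from fixed lists, by the same size of difference between 36-h and 2-h cells. Of 8 partner genes, 4 were higher and none lower, where 23.1% of the 4398 genes were higher and 13.3% lower. MXR2 (1.79) and MXR1 (1.53), the methionine sulfoxide reductases of mitochondria and cytosol, take electrons from thioredoxin, SRX1 (1.71) encodes the sulfiredoxin that restores overoxidized peroxiredoxin, and GPX2 (1.25) encodes a glutathione peroxidase-like enzyme. GPX1 (0.87), MET16 (0.64), YBP1 (0.26) and HYR1 (-0.19) did not reach the size, and GPX1 was found in fewer than 20% of all cells. SRX1 had reads in 25 of 45 cells at 36 h, against 9 of 37 at 2 h. The median over the 8 genes was 1.06. Between 36-h/S and 36-h/F cells 3 of the 8 were lower, GPX2 (-1.88), MXR2 (-1.44) and HYR1 (-1.0), and between 16-h/S and 16-h/F cells also 3, GPX2 (-2.34), MXR2 (-1.08) and MET16 (-1.06). Over all genes 20.1% were lower in 36-h/S and 14.6% in 16-h/S, and the S cells were the shallower ones at both ages. Without the 36-h cells 14 and 22 the same 3 stood at -1.51 (GPX2), -1.14 (MXR2) and -1.15 (HYR1), and MET16 was higher in 36-h/S (1.12, against 0.85 with all cells).

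A list of 11 genes held the pentose phosphate pathway and other NADPH sources, and not all of them encode enzymes that make NADPH. Of these 11, 6 were higher and 1 lower at 36 h, with a median of 1.40. Over the 4398 genes, 23.1% were higher and 13.3% lower. In the pentose phosphate pathway, ZWF1 (2.46), the glucose-6-phosphate dehydrogenase gene of its first step, TAL1 (1.40), the transaldolase gene, and GND2 (2.98) and SOL4 (3.64) were higher. ALD6 (1.68), encoding a cytosolic aldehyde dehydrogenase that makes NADPH, was higher too. TKL2, the minor transketolase gene, had no reads in any of 37 cells at 2 h, for which the limit of 3 cells in 37 allows up to 8.11% of cells with reads at this depth (counting error only), but was found in 19 of 43 cells at 16 h and 32 of 45 at 36 h, with a median log2 level of 8.27 at 36 h. The paralogs of these late genes did not go with them. SOL3, the paralog of SOL4, was lower (-1.69), and GND1 (0.13) and TKL1 (-0.02) did not reach the size, nor did IDP2 (0.21) and POS5 (0.32). Of the 4 ribonucleotide reductase genes, RNR2, for the small subunit, was lower (-1.25), while RNR1 (0.32), RNR3 (0.81) and RNR4 (-0.25) did not reach the size. IDP2, POS5 and RNR3 were found in fewer than 20% of all cells.

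Among the transcription factor genes of the system, MSN4 and SKN7 were found in few cells. YAP1, for the factor of the oxidative stress response, had reads in 24 of 37, 30 of 43 and 22 of 45 cells at 2, 16 and 36 h, and differed by -0.24 between 36-h and 2-h cells. MSN2 differed by 0.80. MSN4 had reads in 13 of 45 cells at 36 h, against 2 of 37 at 2 h, and differed by 1.11, although it was found in too few cells for the filter of 20%, and SKN7 was found in 3, 4 and 1 cells. Between 36-h/S and 36-h/F cells, MSN2 (1.70) and YAP1 (1.33) were higher, with reads of YAP1 in 10 of 18 cells in 36-h/S against 12 of 27 in 36-h/F. Over all genes 7.3% were higher in 36-h/S. Without the 36-h cells 14 and 22, MSN2 stood at 1.62 and YAP1 at 1.32. At 16 h, MSN2 was also higher in S than in F cells (1.06), while YAP1 was not (0.007), where 4.46% of all genes were higher.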

How the data were processed

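Per the deposited labels and the study's methods, paired-end reads were mapped by the authors with HISAT2 2.1.0 to R64, the S288C reference genome, then sorted with SAMtools 1.1 and counted per gene with featureCounts. The strand setting is not given in the sources used here. Cells with few genes or reads, or dominated by spike-in RNA, had been removed. The deposited values are log2 normalized counts, made by the authors as the log2 of reads over a DESeq2 size factor plus 1. After the log2 was undone, all 278228 values above 0 were whole multiples of 1 step per cell within a tolerance of 0.05, which gave the reads.

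Members and lists were chosen with earlier results of these data known. S and F were taken from the study's list per cell, since the sample labels do not give them. Means, SDs among cells, differences of mean log2 and shares of cells with exact 95% intervals (for a count of 0, the limit of 3 cells of the group) were computed with Python 3.11.15, numpy 2.4.6, pandas 2.3.3 and scipy 1.17.1. A probability that one cell lies above another shares ties equally. The difference of mean log2, coded again apart from the script that gave the results, was tested on simulated cells with planted changes. Genes named beyond the members are those of the lists with a difference of at least 1 between 36-h and 2-h cells, their remaining members where counts are small, the regulators, and the 2 genes most like each member with reads in at least 50% of all cells. Coding lengths, codons and windows were read from RefSeq's R64 annotation, in which 5693 of 5997 identifiers were found. Percentiles and ranks are descriptions, and no p-value was computed.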

Additional observations from a re-analysis of the deposited data

How the results depend on the processing

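Each group is 1 sample, so precision is limited by the number of cells and by depth. No paired analysis was possible because no replicate number joins cells across groups and no test was made. None of the 360 member differences recomputed under the alternatives changed the sign of a difference that had reached 1, and 359 moved by less than the SD among cells. The exception was TRX3 between 36-h and 2-h cells, at 3.14 as a log2 ratio of mean normalized counts. The SD used, averaged over both groups, was above 1 for every member but AHP1. A move smaller than this SD could therefore carry a difference across the size of 1. TSA1 did so between 36-h/S and 36-h/F cells when cells 14 and 22 were left out. Scaling every cell to the same sum of reads moved the median of all genes between 36-h and 16-h cells to -0.07, against 0.11, and between 36-h and 2-h cells to 0.15, against 0.28. The alternatives without the 36-h cells 14 and 22 and without cells that have reads of daughter genes were chosen after seeing the data.

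With a pseudocount of 10, the members higher by at least 1 were 4 between 36-h and 2-h cells, 0 between 16-h and 2-h cells, 2 between 36-h and 16-h cells and 0 between 36-h/S and 36-h/F cells, where 0 were lower. As a log2 ratio of mean normalized counts, 1 member was higher at 16 h than at 2 h, 2 were higher in 16-h/S, set against 16-h/F, and 0 were lower in 36-h/S, set against 36-h/F. Among cells with at least 100000 reads, 1 member was higher at 16 h than at 2 h, 2 were lower in 16-h/S and 1 was lower in 36-h/S. With every cell scaled to the same sum, 3 members were higher between 36-h and 16-h cells and 1 was lower in 16-h/S. Without the highest cell of each group 1 was lower in 16-h/S. After thinning to 40000 reads, with the thinned reads scaled to the same sum in place of the size factors, 3 were lower in 16-h/S and 0 higher in 36-h/S. Without the 36-h cells 14 and 22, 2 members were higher and 2 lower in 36-h/S. Among cells without reads of daughter genes, 0 members were higher and 1 was lower at 16 h than at 2 h. The causes of these changes were not tested.

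Over all genes, a size of 2 in place of 1 left 308 higher and 171 lower between 36-h and 2-h cells, 63 and 25 between 16-h and 2-h cells, 131 and 33 between 36-h and 16-h cells, 7 and 45 between 16-h/S and 16-h/F cells, and 39 and 155 between 36-h/S and 36-h/F cells. With the same sum, 593 in place of 381 genes were lower between 36-h and 16-h cells, and higher ones made up 42% in place of 61.6% of the genes that differed.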
